A study of Mus musculus with 2 samples.

Results

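Genes that mark the endothelium of the kidney were followed in mice that lack Cnnm2, a gene of magnesium handling, in the nephron. The 10 genes were Pecam1, Kdr, Cdh5, Tek, Emcn, Flt1, Ehd3, Plvap, Nos3 and Vwf, and they were chosen by symbol, as all probes of these names on both arrays. They are 10 of 31829 gene names on the array, and 13 of its 39429 gene probes. Among the members, 7 genes had 1 probe and 3 genes (Kdr, Plvap and Nos3) had 2.

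Total RNA was taken from kidneys at an age of 2 months. The knockout was Cnnm2 fl/fl;Six2-Cre and the control Cnnm2 +/+;Six2-Cre, so that both genotypes carried the Cre, and their RNA was hybridized together. Array 1 held the knockout RNA in Cy5 and the control RNA in Cy3, and array 2 had the dyes exchanged. The study describes age- and sex-matched animals of both sexes and a Cre fused to GFP. The sources used here give neither the number of mice behind the arrays nor whether both arrays carried the same RNA. It was assumed that they did, which leaves 1 replicate per genotype. The genotypes were therefore compared without a test. Each SD is that of the 2 arrays, whose small number limits precision, and it covers labeling and hybridization only. Six2-Cre is active in nephron progenitors, which form the epithelium of the nephron, podocytes included, and not the endothelium. The members were thus measured in RNA of whole kidneys whose endothelium lies outside that lineage.

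Endothelial cells line the blood vessels of the kidney, from arteries through the fenestrated capillaries of the glomerulus and the capillaries around the tubules to the veins. They respond to VEGF, which podocytes and tubule cells make, through the receptors Flt1 and Kdr, and to angiopoietins through the receptor Tek. Their junctions are held by Cdh5 and Pecam1, while Emcn, Ehd3 and Plvap mark particular capillary beds, Nos3 makes nitric oxide, and Vwf is a clotting protein of larger vessels.

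Cnnm2 itself checks the labels. Its log2 ratio of knockout over control was -2.88 on array 1 and -2.46 on array 2, a mean of -2.67 ± 0.30 (SD of the arrays). In the series as a whole, 19707 genes were compared, namely those with a probe called well above background on each array for the knockout, for the control or for both. Their direction was the same on the arrays in 27.7%. Across these genes, which do not stand for independent replicates, the ratios of the arrays had a Pearson r of -0.51 and a Spearman rho of -0.56. The SD over genes was 0.40 for the dye part, defined as the ratio on array 1 minus that on array 2, divided by 2, and 0.23 for the mean of the arrays. A negative dye part means that a probe gave the higher ratio to the RNA in Cy3. The mean of the arrays cancels it. The SD of the arrays rests on the same difference as the dye part. It gives the size of the dye part on another scale and is not separate evidence.

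All 10 members, with all 13 probes, were called well above background in every channel. In RNA of whole kidneys, this does not show which cells the signal came from. Their 31 spots per array held 0 saturated spots, and 1 spot was marked as irregular and left out. In 7 of the 10 genes, the probe was brighter than the median gene compared.

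The members with several probes are shown first, since each pair reads 1 gene at different places. All 13 probes are 60 bases long. The first 30 bases of each are printed 5′ to 3′ as they stand in the deposited scanner files, and the G and C content given below is that of all 60 bases.
Kdr A_51_P316553: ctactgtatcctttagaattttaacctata
Kdr A_55_P2094469: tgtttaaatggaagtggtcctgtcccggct
Plvap A_51_P414653: tttccagcctccctcttaaaggccactagg
Plvap A_55_P2049186: attcaagaaaaggatcctggagtctcagcg
Nos3 A_55_P2034027: tgtagactccctttaactctctctctggag
Nos3 A_51_P139651: gatcagcaacgctaccacgaggacattttc
The Kdr probes lie at chr5:76329309-76329368 and chr5:76330395-76330454 (mm9, minus strand), 1086 bases apart in the transcript. The Plvap probes lie at chr8:74021877-74021936 and chr8:74030739-74030798 (minus strand), 431 bases apart in the transcript, and the Nos3 probes at chr5:23890038-23890097 and chr5:23889636-23889695 (plus strand), 402 bases apart. No mm9 annotation was used here, so exon and UTR positions are not given.

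With the probe of highest signal taken for each gene, 4 of the 10 members were lower in the knockout on both arrays (Kdr, Cdh5, Flt1 and Ehd3), against 15.6% of the genes compared. Both Emcn and Vwf, 2 of 10, were higher on both arrays, against 12.1% of genes. Each was so under 9 of the 11 ways of processing, but several of these repeat the same values for genes with 1 probe. With background-subtracted signals centred on the median, Emcn had -0.11 and Vwf -0.06 on array 2. With processed signals centred on the median, these were -0.04 and -0.06. The other 4 members (Pecam1, Tek, Plvap and Nos3) had opposite directions on the arrays, as did 72.3% of genes. A mean of 2-fold or more with a like sign on each array was found in 0 of 10 members, against 0.599% of genes. By the same rule, 2 members, Cdh5 and Flt1, were lower by 1.2-fold or more, against 4.61% of genes, and 0 members were higher by that amount, against 3.66%. With normexp background correction and loess normalization, 1 of these, Flt1, passed that limit, and Cdh5 had a mean of -0.24. The median over the members of the mean log2 ratio was -0.07, against -0.0081 for the genes compared. The members' medians on the single arrays were -0.31 and 0.01, with an SD of 0.23. In kidney RNA, fewer endothelial cells and less RNA per cell cannot be told apart.

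**Figure D1:**
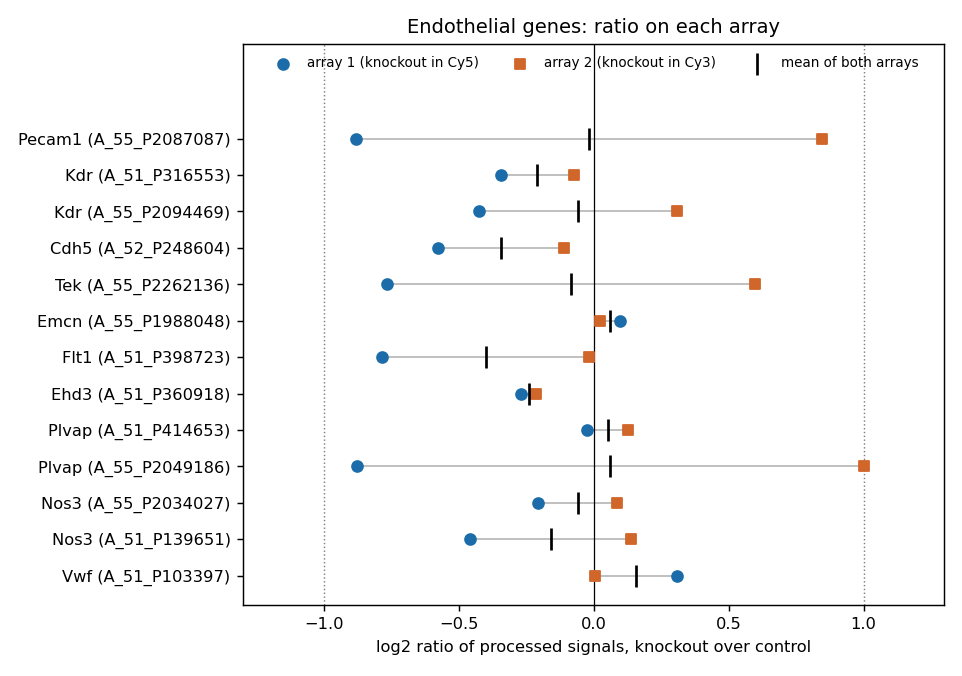
The log2 ratio of knockout over control (horizontal axis) is plotted for the 13 probes of the 10 endothelial genes, with array 1 as circles, array 2 as squares and their mean as a vertical bar. Kdr (probe A_51_P316553), Cdh5, Flt1 and Ehd3 lie below 0 on both arrays, while the squares and circles of Pecam1, Tek and one Plvap probe lie far apart on opposite sides of 0.

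Of the VEGF receptors, Flt1 encodes a receptor that binds VEGF tightly and, in its soluble form, keeps it from other receptors. Its processed signal, in scanner units corrected for background and dye, reached 4063 in the knockout and 6997 in the control on array 1. On array 2 it reached 4335 and 4392. The knockout was the lower channel each time, with a wide gap on array 1 and almost none on array 2. The log2 ratios of -0.78 and -0.02 averaged to -0.40 ± 0.54 (0.757-fold). This was the lowest mean of the members and lay at percentile 3.06 of the genes compared. The probe lies at chr5:148373791-148373850 (mm9, minus strand).

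Kdr encodes the main signaling receptor for VEGF on endothelial cells. Its brighter probe, A_51_P316553, gave 2642 in the knockout and 3357 in the control on array 1, and 2700 and 2842 on array 2. The log2 ratios were -0.35 and -0.07, and the mean was -0.21 ± 0.19 (0.865-fold, percentile 10.46). The knockout was again the lower channel on both arrays. This probe was printed 10 times on each array, which gives the error of a single hybridization. The spots ran from -0.38 to -0.32 on array 1 (10 of 10 below 0, SD 0.023) and from -0.14 to -0.04 on array 2 (9 of 9 below 0, SD 0.034). The spots of the arrays did not overlap, so the arrays differed by more than the spread of spots within them. The other Kdr probe, A_55_P2094469, gave 1893 and 2541 on array 1 and 2188 and 1766 on array 2. Its log2 ratios of -0.42 and 0.31 had opposite signs, with a mean of -0.06 ± 0.52. The lower level of Kdr on both arrays thus held for 1 of its 2 probes.

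Tek encodes the receptor of the angiopoietins, which steady the vessel wall. It gave 160 in the knockout and 272 in the control on array 1, and 307 and 203 on array 2. The channel in Cy3 was the higher one on both arrays. The log2 ratios of -0.77 and 0.60 averaged to -0.08 ± 0.96 (0.943-fold, percentile 28.8), and the dye part of -0.68 lay at percentile 4.19 of the genes compared. The probe lies at chr4:94540624-94540683 (mm9, plus strand).

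Cdh5, or VE-cadherin, joins endothelial cells at adherens junctions. Its signals were 453 in the knockout and 675 in the control on array 1, and 504 and 544 on array 2. The knockout channel was the lower of each pair. The log2 ratios were -0.58 and -0.11, and the mean was -0.34 ± 0.33 (0.788-fold, percentile 4.23), for a probe at chr8:106668159-106668218 (mm9, plus strand).

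Pecam1, the other junction protein among the members and a general endothelial marker, was the dimmest of them. It gave 120 in the knockout and 222 in the control on array 1, and 216 and 120 on array 2. Each time, the RNA in Cy3 gave nearly the same higher value and the RNA in Cy5 the same lower one. The log2 ratios of -0.88 and 0.85 cancelled to a mean of -0.02 ± 1.22 (0.988-fold, percentile 47.1), and the dye part was -0.87 (percentile 2.58). The probe lies at chr11:106540864-106540923 (mm9, minus strand).

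Among the genes of particular capillary beds, Ehd3, a membrane trafficking protein that is enriched in glomerular endothelium, gave 1841 in the knockout and 2219 in the control on array 1, and 1572 and 1824 on array 2. The knockout was the lower channel by similar amounts, with log2 ratios of -0.27 and -0.21. Its mean of -0.24 ± 0.0392 (0.846-fold, percentile 8.24) had the smallest spread between the arrays of the members, and its dye part was -0.03. The probe lies at chr17:74181371-74181428 (mm9, plus strand).

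Emcn encodes endomucin, a sialomucin of capillary and venous endothelium. It gave 1438 in the knockout and 1343 in the control on array 1, and 1264 and 1245 on array 2. The channels lay close together, with the knockout slightly above each time. These signals gave log2 ratios of 0.10 and 0.02 and a mean of 0.06 ± 0.05 (1.04-fold, percentile 69.1). The probe lies at chr3:137086389-137086448 (mm9, plus strand).

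Plvap, which forms the diaphragms of fenestrae and caveolae, was the brightest member. Its brighter probe, A_51_P414653, gave 8629 in the knockout and 8778 in the control on array 1, and 8635 and 7903 on array 2. On the log2 scale the ratios were -0.02 and 0.13, and they averaged to 0.05 ± 0.11 (1.04-fold, percentile 66.8), and the genotypes hardly differed. Its other probe, A_55_P2049186, gave 692 and 1270 on array 1 and 1316 and 658 on array 2, that is, about the same pair of values with the genotypes exchanged. The log2 ratios of -0.88 and 1.0004 averaged to 0.06 ± 1.33. The Plvap probes therefore differed by 0.85 on array 1 and by -0.87 on array 2, but by only -0.01 in the mean of the arrays.

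**Figure D2:**
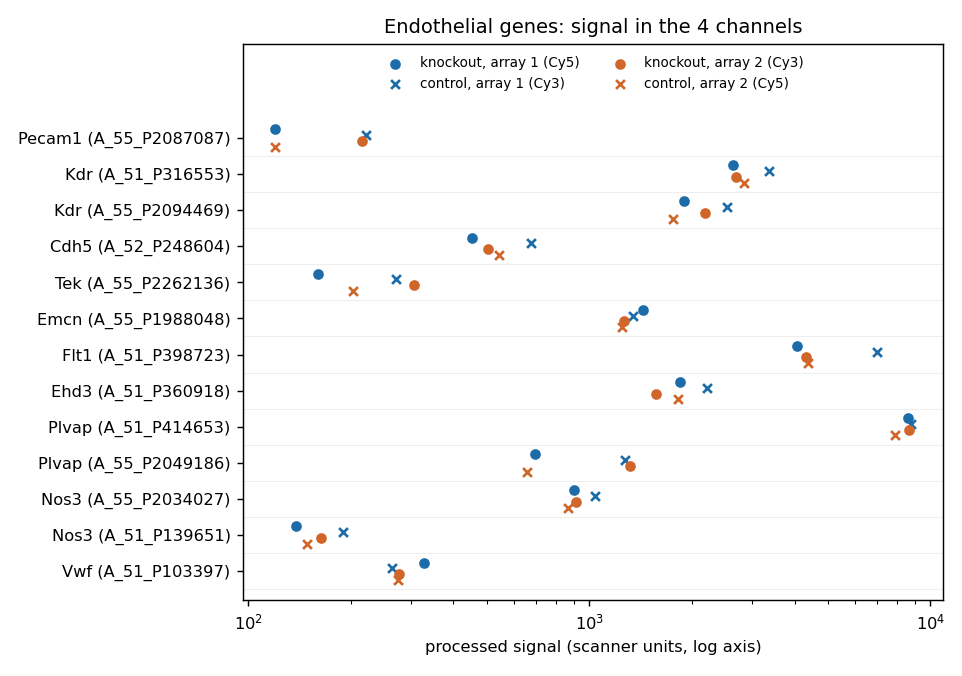
Processed signals (log axis, scanner units) are plotted for each member probe in the 4 channels, with the knockout as circles, the control as crosses, array 1 in blue and array 2 in orange. For Pecam1, Tek and Plvap probe A_55_P2049186, the knockout is below the control on array 1 and above it on array 2, whereas for Ehd3 and Cdh5 the knockout is below on both.

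Nos3, the nitric oxide synthase of endothelium, gave 901 in the knockout and 1039 in the control on array 1 with its brighter probe, A_55_P2034027, and 917 and 864 on array 2. The log2 ratios were -0.21 and 0.08, and the mean was -0.06 ± 0.21 (0.959-fold, percentile 35.2). The order of the genotypes was exchanged between the arrays. Its other probe, A_51_P139651, was printed 10 times and gave 138 and 189 on array 1 and 164 and 149 on array 2. Its ratios of -0.46 and 0.14 on the log2 scale averaged to -0.16 ± 0.42. On array 1, 10 of 10 spots were below 0, from -0.49 to -0.38. On array 2, 9 spots were above 0 and 1 below, from -0.01 to 0.28 (SD 0.085). Both Nos3 probes thus gave the same order on each array, lower in the knockout on array 1 and higher on array 2.

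**Figure D3:**
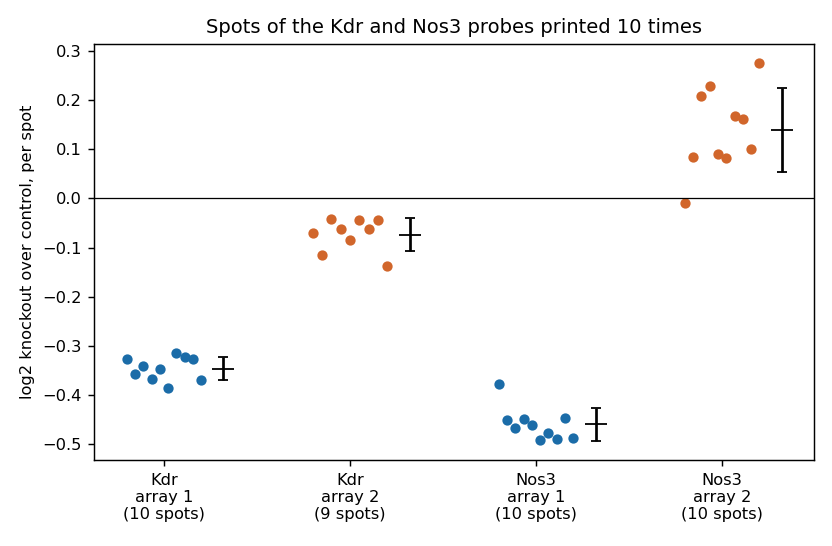
Each point is the log2 ratio of knockout over control of a single spot of the Kdr probe A_51_P316553 or the Nos3 probe A_51_P139651, and the bars give mean ± SD of the spots on an array. The Kdr spots lie below 0 on both arrays, at a mean of -0.35 on array 1 and -0.07 on array 2, and the Nos3 spots move from -0.46 on array 1 to 0.14 on array 2.

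Vwf, a carrier of a clotting factor and an anchor for platelets, was the member with the highest mean. It gave 327 in the knockout and 265 in the control on array 1, and 276 and 275 on array 2. The knockout was above the control on array 1 and level with it on array 2. This gave log2 ratios of 0.31 and 0.0046 and a mean of 0.16 ± 0.21 (1.11-fold, percentile 86.1). The probe lies at chr6:125636551-125636610 (mm9, plus strand).

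The direction of the members differed between the arrays. On array 1, 8 of the 10 were lower in the knockout, with a median of -0.31, where 49.2% of the genes compared were lower. On array 2, 4 of the 10 were lower and the median was 0.01, where 54.4% of genes were lower. The dye part was negative in 8 of 10 members, against 46.9% of genes, and its median was -0.14, against 0.025. In size, the members' median dye part of 0.15 was below that of all genes compared, 0.21. The mean of the arrays was larger than their SD in 4 members (Kdr, Cdh5, Emcn and Ehd3), against 20.7% of genes.

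**Figure D4:**
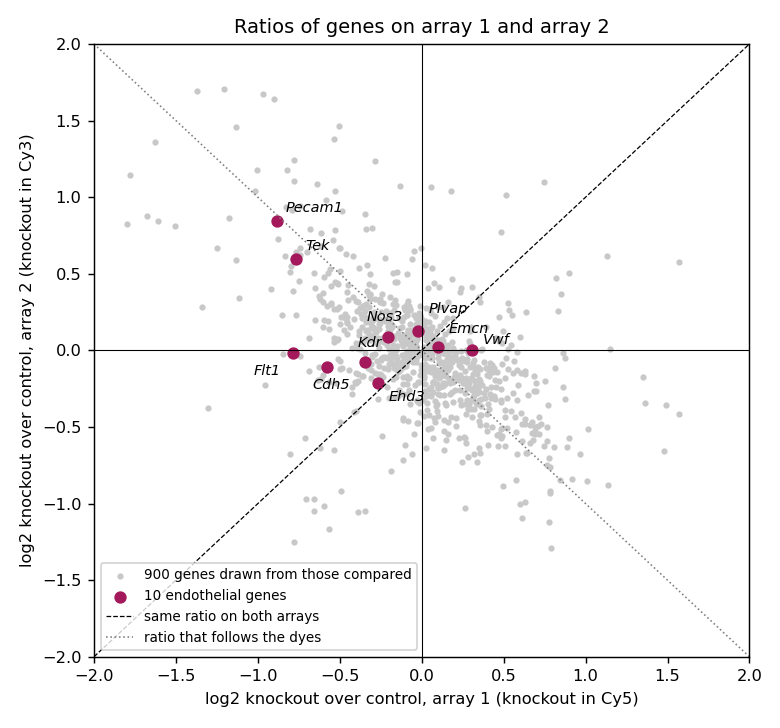
The log2 ratio of knockout over control on array 1 (horizontal axis) is plotted against that on array 2 (vertical axis) for the 10 endothelial genes (large points) and for 900 of the genes compared (small points, of which 6 lie outside the axes). Pecam1 and Tek lie near the dotted line of ratios that follow the dyes, Ehd3 lies near the dashed line of equal ratios, and Flt1 lies far to the left with an array 2 value near 0.

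The G and C content of the member probes ran from 35% to 55%, with a median of 45%, against 41.7% over the genes compared. In each of the 3 pairs printed above, the probe with more G and C had the more negative dye part and was also the dimmer one. The Kdr probes, at 35% and 55%, had dye parts of -0.14 and -0.37. For Plvap, at 50% and 55%, they were -0.08 and -0.94, and for Nos3, at 41.7% and 55%, -0.15 and -0.30. Spearman's rho of G and C content and dye part was -0.30 over the 13 member probes and -0.21 over the genes compared, where the points share the same arrays. The parts of base composition and of signal in the members' ratios were not tested, and the pairs cannot tell them apart.

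Between the probes of a gene, the means of the arrays differed by -0.15 for Kdr, -0.01 for Plvap and 0.10 for Nos3. Among 3296 genes with 2 probes above background, the median gap was 0.0973 in size, and the gaps of Kdr, Plvap and Nos3 lay at percentiles 67.1, 6.92 and 51.1 of these genes.

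The methods' t-test, a paired two-tailed test over the arrays with a threshold of 0.1, was computed for completeness, although the arrays are taken here as labelings of the same RNA. Ehd3 was the 1 member that passed it, against 4.99% of genes. After Benjamini-Hochberg adjustment over all genes compared, 0 members and 0 of the 19707 genes passed. Without adjustment, 0 members passed at 0.05, and Ehd3 was far from the mean fold of over 2 that the methods also ask for.

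Other genes of the same pathways were taken from 8 lists of ligands, receptors, junctions, transcription factors, nitric oxide and caveolar genes, coagulation, glomerular endothelium and arteries. Of their 82 genes, 79 were compared, with a median log2 ratio of -0.09. Lower values on both arrays were found in 12 (15.2%, against 15.6% of all genes compared) and higher ones in 4 (5.06%, against 12.1%), and the other 63 had opposite directions. The share of lower genes was thus near that of all genes. The shares of all genes also apply to the counts of single lists below, each of which holds few genes. By 1.2-fold or more with a like sign on each array, 4 genes were lower and 3 higher, against 4.61% and 3.66% of all genes, and 1 differed by 2-fold or more, against 0.599%.

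The VEGF family and angiopoietin ligands had no common direction. Vegfa, the main ligand of Flt1 and Kdr, gave 0.24 on array 1 and -0.26 on array 2 as log2 ratios, a mean of -0.0074. Its other probe gave -0.10 and -0.03. Vegfb gave -0.15 and 0.10. Pgf, another Flt1 ligand, had -1.43 and 1.32, a mean of -0.06. Vegfc was higher on both arrays (0.30 and 0.04), while Figf had 0.02 and -0.22. The Tek ligands Angpt1 and Angpt2 had means of 0.13 and 0.14, with opposite signs on the arrays. Their list also held the related genes Angptl2 and Angptl4, which were not counted as ligands of the member receptors. Angptl2 had a mean of 0.10, which was the median of the list. The highest of the list was Angptl4, an inhibitor of lipoprotein lipase that is made by many cells, with 0.48 and 0.53 and a mean of 0.50 ± 0.0332. Of the 9 genes on this list, 2 (Vegfc and Angptl4) were higher on both arrays, 0 were lower on both and 7 had opposite directions.

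Among 7 other receptors and coreceptors, 2 were lower on both arrays, 0 were higher on both and the median was -0.15. They were Ptprb, the phosphatase that acts on Tek, with -0.44 and -0.05, and Acvrl1, a receptor of the BMP family, with -0.24 and -0.06. The other Ptprb probe gave 0.49 and -0.25, so the lower level on both arrays held for 1 of its 2 probes. The lowest mean was that of Flt4, the VEGF receptor of lymphatic vessels, at -0.46 (-1.02 and 0.10), and the highest that of Nrp1, a VEGF coreceptor, at 0.02. Junction and adhesion genes had 3 of 14 lower on both arrays (Vcam1, Cd93 and Gpr116) and 0 higher. Vcam1, which binds leukocytes, was lowest at -0.26, although its other probe gave 0.13. Mcam was highest at 0.12, although its other probe gave -0.22. Sele and Selp, the selectins of activated endothelium, were too dim to be compared.

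Of the 12 transcription factors, 2 were lower on both arrays and 0 higher. Sox17, a factor of arterial endothelium, was lower with both of its probes, at means of -0.27 and -0.32. Gata2 had -0.30 and -0.03. Sox18 had the lowest mean, -0.30, from 0.27 and -0.86, and Klf2, a factor induced by flow, the highest at 0.02 from 0.60 and -0.55. Of the 10 nitric oxide and caveolar genes, Nostrin, which binds Nos3 and moves it from the membrane, was lower on both arrays at -0.29 and -0.21, close to the values of Ehd3, and Ddah2 at -0.04 on both. Ece1 had the lowest mean of that list, -0.43, from -2.04 and 1.18, and Ptrf the highest at 0.15. The other Ptrf probe, which was not above background in both genotypes, gave 1.53 and 0.71.

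Of 9 coagulation genes compared, Tfpi, an inhibitor of clotting, was the 1 that was higher on both arrays, at 0.21 and 0.46, and its other probe gave 0.78 and 0.11. Pros1 was lowest at -0.17. Of 9 genes that accompany Ehd3 in glomerular endothelium or other capillary beds, Lpl, the lipase that Angptl4 inhibits, was the 1 higher on both arrays, at 0.79 and 0.04, with 0.02 and 0.71 from its other probe, and Smad6 was lowest at -0.29. The arterial and Notch genes had the lowest median of the endothelial lists, -0.19, with 3 of 9 lower on both arrays. Notch1, a receptor that fixes arterial fate and acts in many cell types, had -0.86 and -1.45, a mean of -1.15 ± 0.42, and was the 1 gene of these lists that differed by 2-fold or more. Its other probe, which was not above background in both genotypes, gave -2.39 and 1.21. Gja5, a connexin of arteries, had -1.39 and -0.15. Its second probe, also not above background in both genotypes, gave -1.35 and 1.04. Hey1, a Notch target, had -0.11 and -0.44. Jag1, a Notch ligand, had the highest mean of that list, -0.05.

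Markers of other cells in the kidney were measured beside the members with 9 lists. Podocyte markers, whose cells descend from the progenitors that carry the Cre, were lower on both arrays in 6 of 8 genes, against 15.6% of all genes compared, and higher in 0, against 12.1%, with a median of -0.22. Wt1, a podocyte transcription factor, had -0.13 and -0.59, and Nphs1, of the slit diaphragm, had -0.11 and -0.53. Cd2ap was highest at 0.06. The summed signal of these 8 genes came to 16636 in the knockout and 19486 in the control on array 1, and 13280 and 14790 on array 2. The summed signal of the 10 members came to 20575 and 25167 on array 1, and 20726 and 20212 on array 2. The podocyte sum was thus lower in the knockout on both arrays and the endothelial sum on array 1 alone. The part of podocytes in the members' ratios was not tested.

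Mural and mesangial markers, of the cells that wrap these vessels, had a median of -0.16. On both arrays, 1 of 10 was lower, against 15.6% of all genes compared. That gene was Notch3, with -0.33 and -0.41. Ren1, the renin gene, had the lowest mean, -0.45 (-1.004 and 0.11), and Rgs5 the highest, 0.14. The summed signal of the 10 genes came to 10230 in the knockout and 12966 in the control on array 1, and 9782 and 9922 on array 2. Platelet markers, some of which share Vwf's role in clotting, had opposite directions in 4 of 4 genes compared, against 72.3% of all genes. Leukocyte markers, some of whose cells carry Pecam1, had 2 of 7 lower on both arrays, against 15.6% of all genes. Their median was 0.0042. Of the 4 lymphatic markers compared, 0 had a like direction on the arrays, against 27.7% of all genes. Lyve1 and Reln were too dim to be compared.

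The medians of the remaining lists were 0.10 for fibroblasts, -0.19 for red blood cells, 0.04 for proximal tubule and -0.16 for other tubule segments, the collecting duct included. Lower on both arrays were 1 of 6, 2 of 4, 0 of 7 and 4 of 8 genes, against 15.6% of all genes compared. Slc4a1, lower on both arrays, stands on the red blood cell list and on that of other tubule segments and is counted in each. Each marker list held some genes above background in both genotypes, though Prox1, of the lymphatic list, was compared without being so. Genes too dim to be compared had been left out beforehand, so the lists do not show whether a cell type was present.

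**Figure D5:**
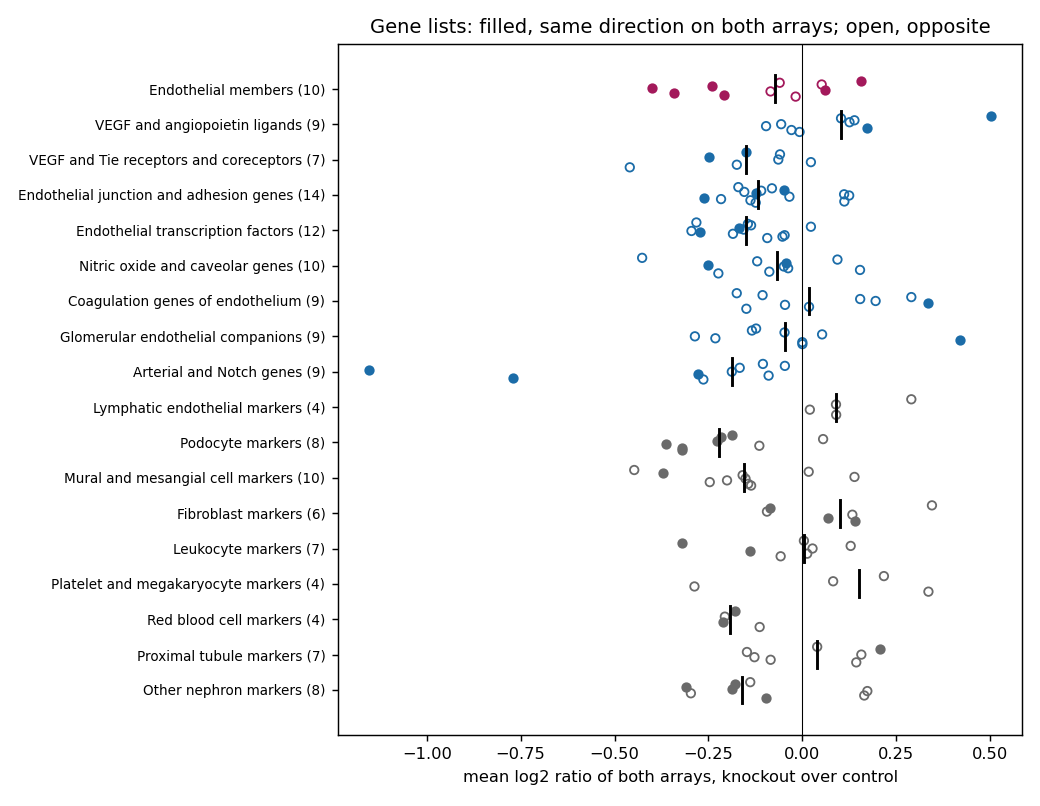
The mean log2 ratio of both arrays, knockout over control, is plotted for each gene of the 10 members and the other lists (number of genes compared in parentheses), with filled points for genes of like direction on the arrays, open points for opposite directions and a bar at the median of each list. The members' bar at -0.07 lies between that of the VEGF and angiopoietin ligand list, 0.10, and that of the podocyte markers, -0.22, and Notch1 stands apart at -1.15.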

How the data were processed

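Kidney RNA of 2 genotypes was measured on 2 two-colour arrays (Agilent 4x44K) with exchanged dyes, counted as 1 replicate of each genotype. The files that the authors deposited are output of the scanner software Agilent Feature Extraction (version 10.7.3.1 per the file headers, 10.5.1.1 in the submitters' processing notes), with signal intensity before and after background subtraction and as processed intensity, corrected for background and dye within each array. They also deposited a log10 ratio of red over green per spot, and a matrix of log10 ratios whose values were within 0.00492 of the scanner's once turned to knockout over control.

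Here, processed signals were taken to log2 and turned to knockout over control by the dye labels. Controls were left out, as were spots that the software marks as irregular or outlying (141 and 175 of 43020 gene spots), spots of a probe were averaged, and each gene was represented by its probe of highest mean signal on the log2 scale. A gene was compared where the software called more than 0.5 of that probe's spots well above background on each array, for at least 1 of the genotypes. Between 62.6% and 68.0% of gene spots were well above background, over median signals of 113 to 161 and local backgrounds of 34 to 43.5. With 1 replicate per genotype, counts by direction and size stand in place of tests, beside their share over all genes compared.

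The members and lists were chosen with earlier results of these data known. Named are all members with every probe, the highest and lowest gene of each other endothelial list, VEGF family and angiopoietin ligands, genes at least 2-fold changed, and Cnnm2. Other genes named as members of small counts, or as further list examples, were chosen after their values were seen. Probe positions (mm9) and sequences are those of the files, and the accessions of the 13 member probes carried the same symbols in the RefSeq table of GRCm38.p6. Alternatives were normexp (offset 50) or no background correction with loess in limma 3.58.1, background-subtracted signals (floor of 1) or processed signals centred on the median, the deposited log ratios, other limits on dim probes, marked spots kept, the median over probes, each array alone, and the methods' t-test. On simulated ratios, only the rule of a 2-fold change with a like sign and the dye part were tried, and not the other steps. Python 3.11.15 (numpy 2.4.6, pandas 2.3.3, scipy 1.17.1, matplotlib 3.10.9) and R 4.3.3 were used.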

Additional observations from a re-analysis of the deposited data

How the results depend on the processing

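The genotypes are paired within each array, so every ratio is a paired value, and the methods' paired t-test left 1 residual degree of freedom. Over the 10 alternatives that kept both arrays, the members' median stayed between -0.10 and -0.05, and 3 to 5 members were lower on both arrays. Cdh5, Flt1 and Ehd3 were lower on both arrays under all 11 settings, the reported one included, and Kdr under 10. For genes with 1 probe, however, many of these settings repeat the reported values apart from rounding. These are the deposited log ratios, the limits on dim probes, marked spots kept and the median over probes. Only the settings with other background correction, loess or centring could change the direction of Cdh5, Flt1 and Ehd3. The number at least 1.2-fold different was 1 with normexp and loess, in place of 2. The number higher on both arrays was 0 with background-subtracted, median-centred signals and 1 with processed, median-centred signals, in place of 2. With a single array, the median was 0.0130 on array 2 and -0.31 on array 1, the number lower 4 to 8, the number higher 2 to 6, and the number at least 1.2-fold different 2 to 7. With both arrays kept, the mean of 1 member moved by more than the SD of its arrays (Ehd3, -0.18 with normexp and loess), and Pecam1 changed sign, its mean running from -0.06 to 0.01. On array 2 alone, Pecam1, Tek and Nos3 were above 0 (0.85, 0.60 and 0.08), and on array 1 alone Plvap was below it (-0.02). Direction rests on 2 hybridizations, and spread between mice was not measured.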
